A study of Mus musculus with 2 samples.

Results

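The 8 genes examined carry and store lipid in cells: Lpl, Cd36, Fabp4, Fabp5, Apoe, Abca1, Abcg1 and Plin2. They were listed by name, out of the 31053 genes counted, and all 8 were detected. Their raw UMI counts (unique molecular identifiers, 1 per captured transcript) were read in single cells of small B16F10 tumours, grown from a mouse melanoma line injected under the skin of C57BL/6 hosts. The comparison asks how loss of host ATF4, the transcription factor that carries out the integrated stress response, is reflected in each cell type of the tumour.

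One library came from Atf4wt/wt hosts (WT) and 1 from Atf4D/D hosts (KO), and each pooled 2 tumours from mice that the labels give as 11 weeks old and of both sexes. Both host lines carried a tamoxifen-inducible Cre (CreERT2) at the Rosa26 locus, which acts in all tissues, and both received tamoxifen. Only the KO hosts had floxed Atf4 alleles, and the melanoma cells kept their own Atf4 in both. With 1 library per genotype there is no replicate and no test, so each interval below is a 95% interval for counting error alone, and a difference in genotype cannot be told apart from a difference between the libraries.

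Lipoprotein lipase, made from Lpl, is secreted and frees fatty acids from circulating triglyceride at the capillary wall, where GPIHBP1 anchors it. CD36 is a scavenger receptor that takes up fatty acids and oxidised lipoproteins, and FABP4 and FABP5 bind fatty acids in the cytosol. Cholesterol leaves the cell through the pumps ABCA1 and ABCG1, with apolipoprotein E as an acceptor, and PLIN2 coats the droplets in which neutral lipid is stored. Tumour macrophages take up lipid from debris and dying cells, and several of these genes are known targets of the lipid sensors PPARγ and LXR.

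On GRCm38 the genes lie apart, except for the neighbours Fabp4 (chr3:10204088-10208576, minus strand) and Fabp5 (chr3:10012548-10016607, plus strand). Lpl is at chr8:68880491-68907448 on the plus strand, Cd36 at chr5:17781690-17888801 on the minus strand, Apoe at chr7:19696109-19699188 on the minus strand, and Plin2 at chr4:86648386-86670060 on the minus strand. Abca1 is at chr4:53030787-53159895 on the minus strand and Abcg1 at chr17:31057675-31117988 on the plus strand. All are protein coding. Abcg1 overlaps the small gene Gm25447 on its own strand, and Fabp5 has an annotated pseudogene copy, Fabp5l2, so counts of both may hold or lose some reads of these. Start regions were taken from RefSeq on GRCm38.p6 for the 4 members it listed there, Apoe, Abca1, Plin2 and Cd36, in 6 windows; Lpl, Fabp4, Fabp5 and Abcg1 were not matched. Motifs were searched on both strands of each whole window, whose first 250 bases lie before the start. They were TGATGNAA, the element that ATF4 binds with C/EBP partners, AGGTCA, the half-site of nuclear receptors, and ACGTG, the core of hypoxia elements. TGATGNAA was in 3.969% of all 32851 windows and in 1 member window, of Apoe. AGGTCA was in 16.26% of all windows and in those of Cd36 and Plin2, and ACGTG was in 19.62% and in those of Abca1 and Plin2. The ACGTG match of Plin2 lay outside the 250 bases before the start. These 250 bases are shown for Apoe (chr7:19698622-19698871) and Cd36 (chr5:17835897-17836146) because these members differed between genotypes in macrophages. Both stretches lie before an alternative start inside the gene, in no annotated exon, and are given 5′ to 3′ on the minus strand with the match in capitals.
Apoe: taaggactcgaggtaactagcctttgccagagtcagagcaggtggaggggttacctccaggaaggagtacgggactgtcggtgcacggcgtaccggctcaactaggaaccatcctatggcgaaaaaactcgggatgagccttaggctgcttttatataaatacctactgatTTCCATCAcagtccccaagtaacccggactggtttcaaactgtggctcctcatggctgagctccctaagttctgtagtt
Cd36: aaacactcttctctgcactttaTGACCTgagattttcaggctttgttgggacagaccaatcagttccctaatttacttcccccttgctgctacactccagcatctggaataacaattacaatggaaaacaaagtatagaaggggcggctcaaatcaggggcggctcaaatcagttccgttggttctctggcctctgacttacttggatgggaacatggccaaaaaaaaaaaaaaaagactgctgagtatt
In both windows the capitals are the reverse complement of the motif, and a match describes these letters and not a binding site.

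Cells were gated by marker genes that hold no member. The WT and KO libraries kept 3861 and 3557 cells with medians of 3920 and 6279 UMIs, and 10 barcodes occurred in both libraries, 1 of them among kept cells. The macrophage-like gate held 1446 WT and 1036 KO cells with closely similar median depth, at 1751.5 and 1742.5 UMIs. There were 68 and 23 endothelial-like cells, 193 and 237 fibroblast-like cells, 4 and 11 mural-like cells, and 1798 and 1877 melanoma-like cells. The macrophage-like gate was led by its own markers, with a median macrophage share of 2.78% and 2.58% of UMIs and a median of 0 for endothelial, fibroblast, mural and T or NK markers there. Cells within 1.2-fold of a gate's lower limit numbered 16 and 12 in the macrophage-like gate and 11 and 51 in the melanoma-like gate, but 1 of the 4 WT and 4 of the 11 KO mural-like cells. Per 1e6 UMIs of the gate (CPM), Atf4 itself measured 188 in WT macrophage-like cells and 42.6 in those of KO, and 257 and 60.2 CPM in fibroblast-like cells. WT endothelial-like cells had 221 CPM and those of KO 0 UMIs, while melanoma-like cells had 227 and 204 CPM.

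The libraries differed in more than host genotype. Although both are labelled as mixed in sex, 0 WT cells of any gate had a UMI of the Y-linked genes Ddx3y, Eif2s3y, Kdm5d and Uty. Among macrophage-like cells, 926 WT cells had Xist and no Y-linked UMI, while the KO cells included 105 with Xist alone, 144 with Y-linked UMIs alone and 3 with both. A further 520 WT and 784 KO cells had neither and entered no set by sex. Their median depths were 1329.5 and 1551 UMIs. The WT Xist, KO Xist and KO Y-linked sets were deeper, at 2112, 2372 and 2420.5 UMIs. Haemoglobin UMIs came to 1726 CPM in the WT macrophage-like gate and 0.916 CPM in the KO one. Values are therefore also given for cells with Xist and no Y-linked UMI, which compares female cells of both genotypes, and the part of sex in each difference was not tested. Adipocytes, which express Lpl, Fabp4 and Cd36 strongly, left little trace, since the 6 adipocyte markers Adipoq, Plin1, Cidec, Retn, Cfd and Lep gave 5 WT and 11 KO UMIs in the whole macrophage-like gate.

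Different cells supplied the transcripts of different members. Macrophage-like cells held 81.4% of WT and 79.1% of KO Lpl UMIs, and 77.7% and 79.3% of Cd36 UMIs. Fabp4 came mainly from the few endothelial-like cells, with 61.3% and 57.6%. Fabp5 came mainly from melanoma-like cells, with 71.1% and 78.8%. Apoe was shared almost evenly, with 47.7% of WT and 48.1% of KO UMIs in macrophage-like cells and 49.9% and 48.1% in melanoma-like cells.

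**Figure D1:**
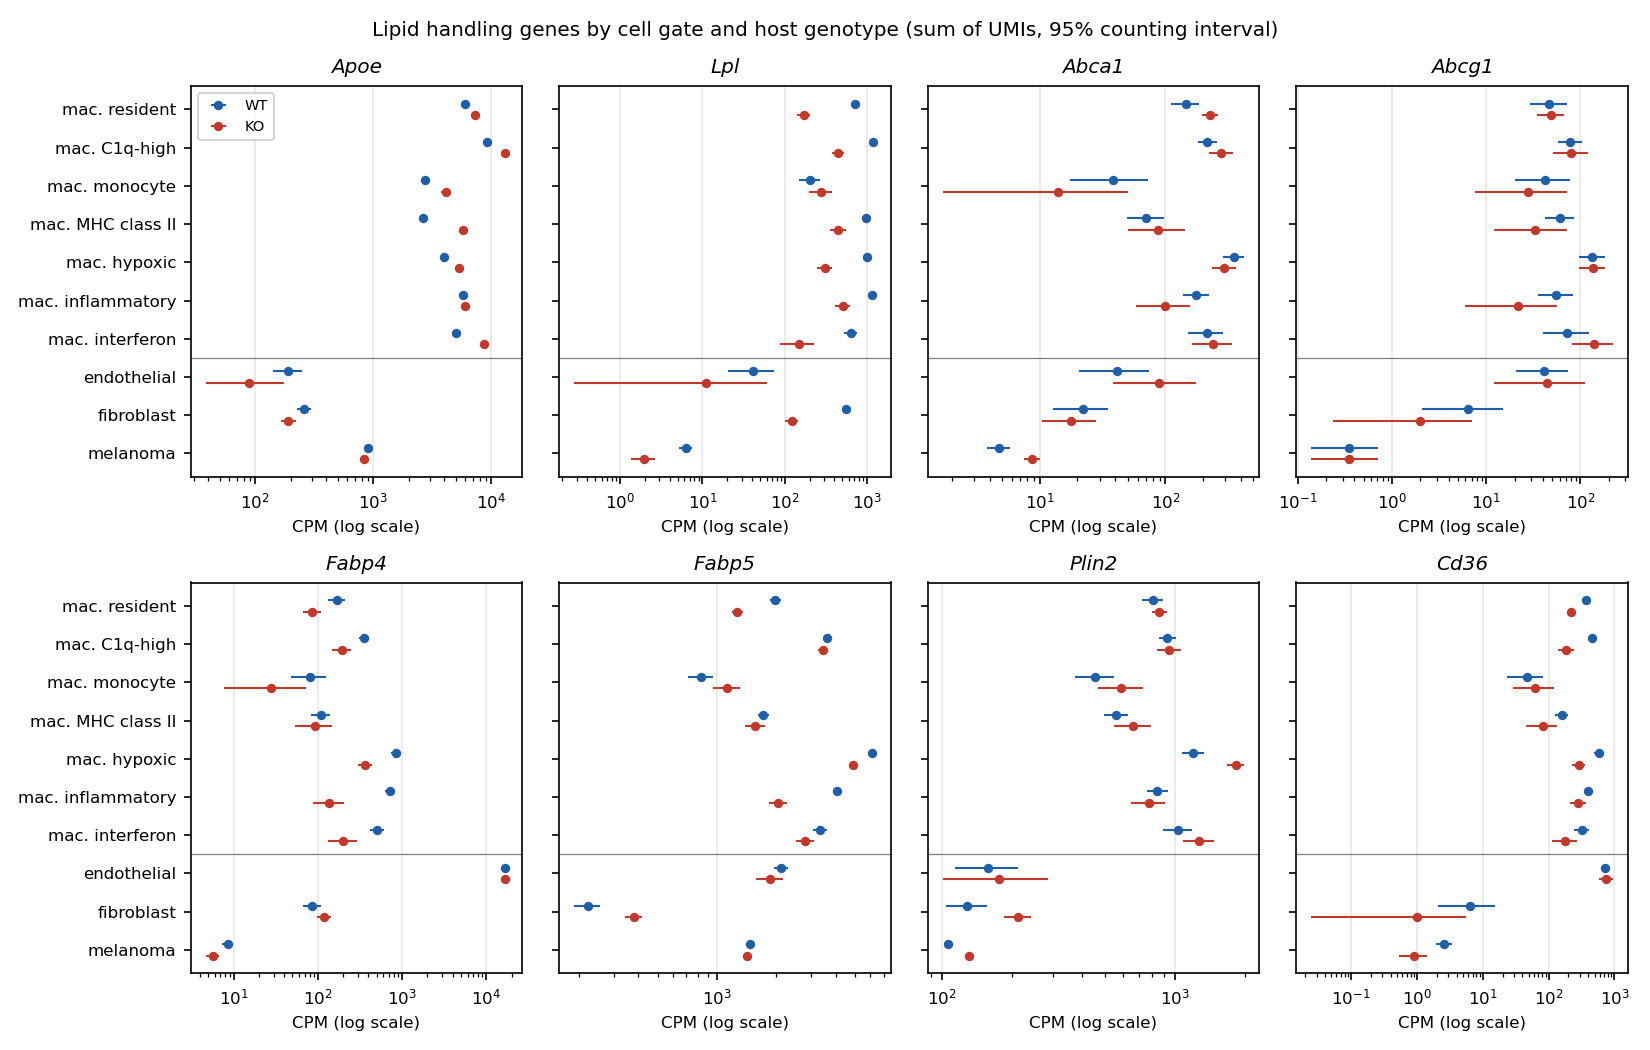
Level of each gene in CPM (log axis) in 7 macrophage states and in endothelial-like, fibroblast-like and melanoma-like cells, WT in blue and KO in red, with 95% counting intervals. Fabp4 was highest in endothelial-like cells at 16640 and 16756 CPM, Apoe in C1q-high macrophages at 9191 and 13136 CPM, and Fabp5 and Plin2 in hypoxic macrophages.

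Macrophage-like cells of the KO library had less Lpl, Fabp4, Cd36 and Fabp5 and more Apoe. Lpl measured 956 CPM in WT cells and 301 CPM in KO cells, a log2 KO/WT of -1.67 (-1.79 to -1.54), which is 3.17-fold lower. Fabp4 was at 409 and 163 CPM (log2 KO/WT -1.33, -1.51 to -1.16), and Cd36 at 367 and 206 CPM (-0.84, -1.0 to -0.68). Fabp5 was at 3242 and 2449 CPM, -0.40 (-0.45 to -0.36). In the other direction Apoe measured 5554 and 7605 CPM (0.45, 0.42 to 0.48). Lpl and Fabp4 were the members at least 2-fold apart, which is 2 of 8 and both lower, whereas 2.96% of the 7505 genes with at least 50 UMIs in this gate were 2-fold apart in either direction. The median log2 ratio was -0.22 for the 8 members and -0.01 for all genes of the gate.

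The cholesterol pumps and the droplet coat differed little. Abca1 was at 172 and 203 CPM (0.24, 0.05 to 0.42). Abcg1 was at 70.4 and 69.1 CPM, -0.03 (-0.33 to 0.28). Plin2 was at 852 and 988 CPM, 0.21 (0.13 to 0.30).

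Fewer cells had detectable Lpl, Cd36 and Fabp4. After each cell was thinned to 2000 UMIs, 70.2% of 615 macrophage-like cells from WT and 32.5% of 437 from KO had an Lpl UMI (47.9% and 28.2% of all cells before thinning). Cd36 was seen in 46.8% and 25.9%, and Fabp4 in 29.8% and 19.7% (before thinning 32.6% and 23.1%, and 22.3% and 15.3%). Apoe was seen in 84.4% and 95.4%. Melanoma-like cells, from median depths of 11358 and 10723 UMIs, had an Lpl UMI in 0.715% of WT and 0.342% of KO cells thinned the same way, a Cd36 UMI in 0.476% and 0.228%, and a Fabp4 UMI in 1.25% and 0.969%. Free RNA, estimated from the melanoma markers seen in the macrophage-like gate, came to 1.55% of the WT and 1.15% of the KO level of Lpl there, 1.63% and 1.15% of Cd36, and 7.21% and 6.78% of Fabp4. Cells under 2000 UMIs, 57.5% and 57.8% of the macrophage-like gate, could not enter the thinned shares.

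**Figure D2:**
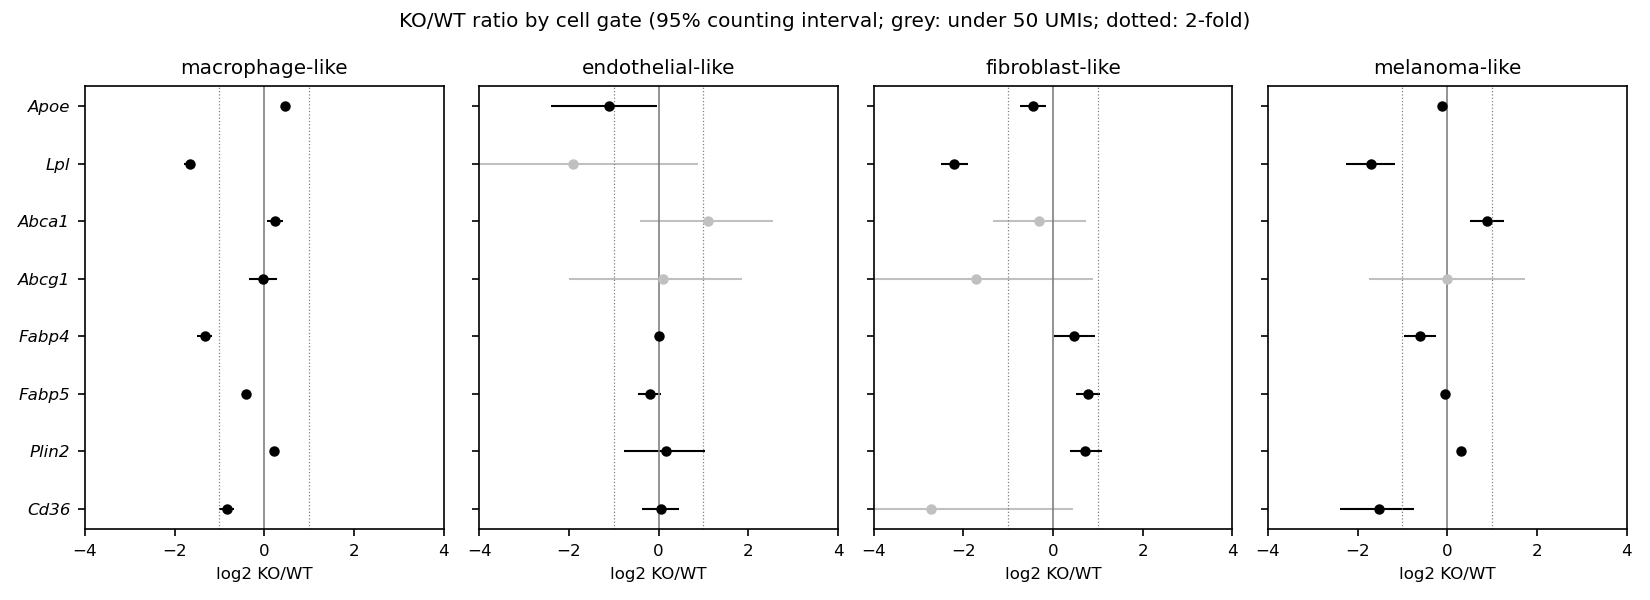
Log2 KO/WT ratio of each gene in 4 cell gates, with 95% counting intervals, grey where both libraries together had under 50 UMIs, and dotted lines at 2-fold. Lpl lay at -1.67 in macrophage-like and -2.20 in fibroblast-like cells, while Fabp4 was at -1.33 in macrophage-like and 0.01 in endothelial-like cells.

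Female cells alone gave smaller differences for several members. In macrophage-like cells with Xist and no Y-linked UMI, Lpl measured 1042 CPM in the WT library and 497 CPM in the KO library (-1.07, -1.33 to -0.82). Fabp4 was at 475 and 254 CPM, -0.90 (-1.28 to -0.55), and Cd36 at 412 and 254 CPM, -0.70 (-1.07 to -0.34). All 3 remained lower in the KO library. Apoe, by contrast, was at 5721 and 5946 CPM, 0.06 (-0.02 to 0.13), and Fabp5 at 3450 and 3808 CPM, 0.14 (0.05 to 0.24), so the higher Apoe and the lower Fabp5 of the whole gate were not seen among female cells. Plin2 was at 899 and 986 CPM, 0.13 (-0.06 to 0.32).

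Within the KO library, male cells had more Apoe and less Lpl, Fabp4 and Fabp5 than female cells. Apoe was at 8367 CPM in KO macrophage-like cells with Y-linked UMIs and no Xist, a log2 ratio of 0.49 (0.41 to 0.58) to KO cells with Xist alone. Lpl was at 269 CPM, -0.88 (-1.27 to -0.50), Fabp4 at 133 CPM, -0.93 (-1.49 to -0.38), and Fabp5 at 1772 CPM, -1.10 (-1.25 to -0.96). Plin2 was nearly equal, at 991 CPM and 0.01 (-0.22 to 0.24). The sexes come from different mice of 1 pool, so sex, mouse and tumour cannot be told apart.

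**Figure D3:**
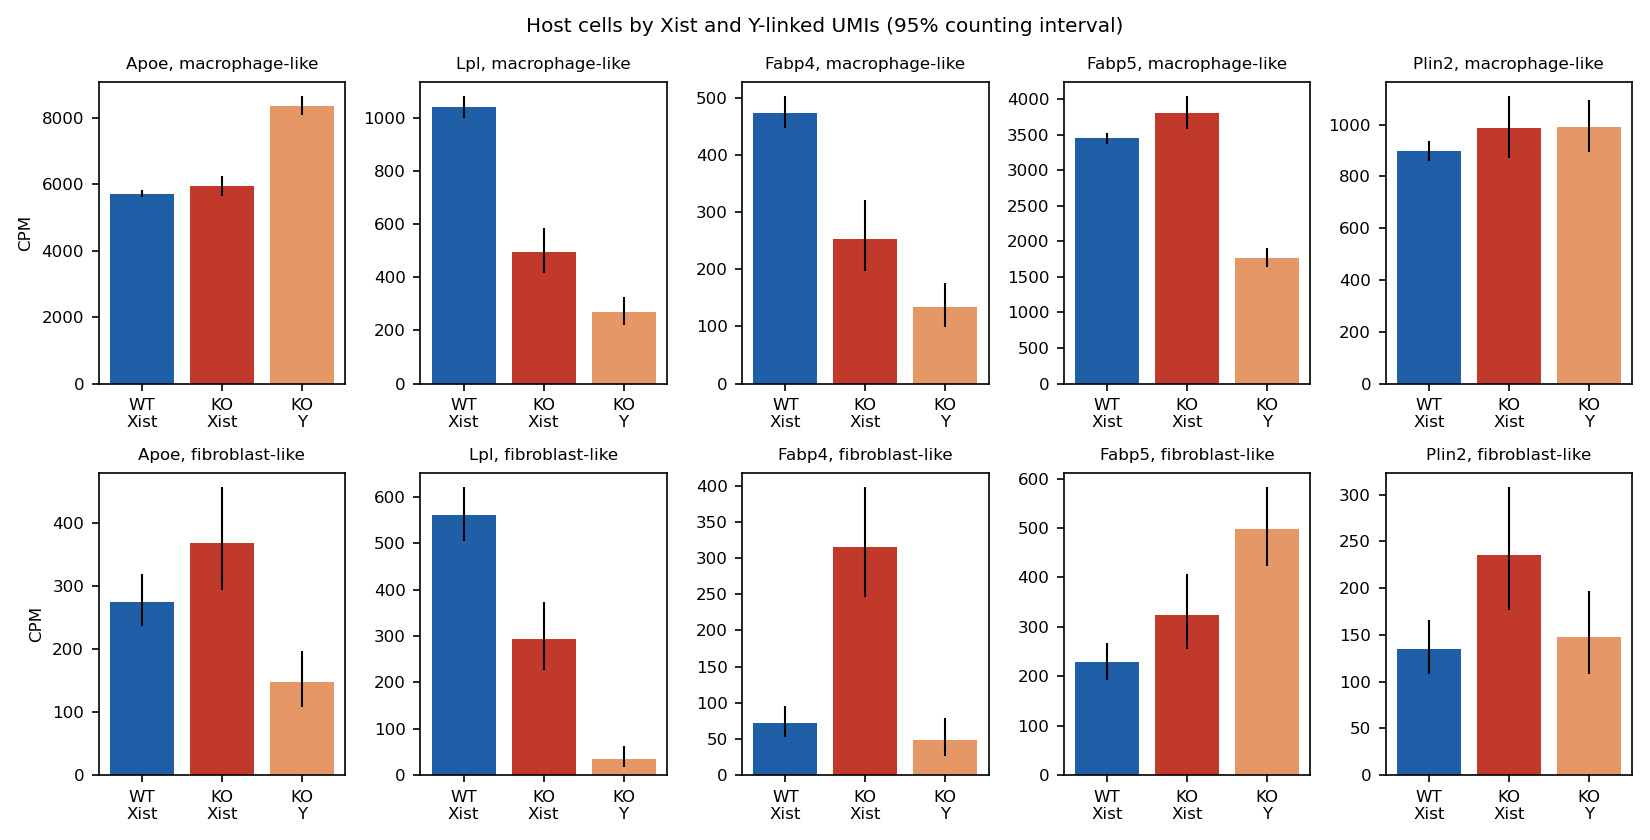
Level in CPM (bars from 0, 95% counting intervals) of 5 genes in macrophage-like and fibroblast-like cells, for WT cells with Xist and no Y-linked UMI, KO cells of the same kind, and KO cells with Y-linked UMIs and no Xist. Macrophage-like Lpl steps down from 1042 to 497 and 269 CPM, and Apoe is higher only in the last set, at 8367 CPM.

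The 7 macrophage states, named from marker lists, held the members at different levels. C1q-high cells, a type of mature tumour macrophage, had the most Apoe, at 9191 (WT) and 13136 CPM (KO). Hypoxic cells, marked by Arg1 and Slc2a1, had the most Fabp5, at 6088 and 4924 CPM, and the most Plin2, at 1202 and 1831 CPM. WT Plin2 levels of hypoxic and interferon cells (1031 CPM) had overlapping intervals, and so did each next pair down to the resident state. In WT, Lpl was at 1170 CPM in C1q-high, 1152 CPM in inflammatory, 1005 CPM in hypoxic and 960 CPM in MHC class II cells, an order in which the intervals of neighbours overlapped. The 179 WT macrophage-like cells that entered no state had 1275 CPM of Lpl and are outside these rankings. The monocyte state, marked by Ly6c2 and Chil3, had the least Lpl in WT, at 200 CPM, and the least Fabp5 there, at 828 CPM, while its KO level of 1124 CPM had an interval overlapping that of resident cells (1270 CPM). In 486 cells a second state lay within 0.5 of the leading z-score, so the levels describe ranges of cells and not separate types.

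Apoe was higher in the KO library in 7 of 7 states, in 6 of them with an interval off 0. The log2 ratios ran from 0.04 in inflammatory cells (5774 and 5928 CPM) to 1.13 in MHC class II cells (2619 and 5743 CPM, 1.02 to 1.25). The states are parts of the same libraries, so they do not repeat the comparison, and they were not split by sex. Among female macrophage-like cells of all states together, Apoe was at 0.06 (-0.02 to 0.13). Lpl was lower in 6 of 7 states, each with an interval off 0. The ratio reached -2.10 (-2.88 to -1.39) in interferon cells, which had 627 and 147 CPM, and -2.06 (-2.37 to -1.77) in resident cells, marked by Lyve1 and Cd163, which had 708 and 169 CPM. Monocytes were the exception, with 200 and 274 CPM and 0.46 (-0.19 to 1.10).

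Fabp4 was lower in 7 of 7 states, in 5 with an interval off 0, and most of all in inflammatory cells, marked by Il1b and Cxcl2, at 713 and 137 CPM (log2 -2.38, -3.03 to -1.79). Its intervals in monocytes (19 and 4 UMIs) and MHC class II cells held 0. Free RNA was estimated at 55.4% of the WT and 63.1% of the KO level of Fabp4 in monocytes. In MHC class II cells it came to 25.7% and 12.0%. Cd36 was lower in 6 of 7 states, from 460 to 183 CPM in C1q-high cells (-1.33, -1.77 to -0.91), and was at 11 and 9 UMIs in monocytes. Fabp5 was lower in 6 states, 4 of them with an interval off 0, down to -1.0 in inflammatory cells (4069 and 2038 CPM), and higher in monocytes at 0.44 (0.13 to 0.75). Free RNA was estimated at 31.0% of the WT and 21.6% of the KO level of Fabp5 in monocytes. Of the 7 states, Plin2 had an interval off 0 in hypoxic cells alone, at 0.61 (0.41 to 0.80). Abca1 and Abcg1 were at -0.24 (-0.67 to 0.18) and 0.02 (-0.65 to 0.68) there. In the 179 WT and 77 KO macrophage-like cells that entered no state, Plin2 was lower in KO, at -0.35 (-0.65 to -0.06). Abca1 was higher in resident cells, at 145 and 226 CPM (0.64, 0.22 to 1.07), and lower in inflammatory cells, at 176 and 98.6 CPM (-0.84, -1.67 to -0.08). The libraries also held these states in different numbers, with 143 WT and 241 KO resident cells and 290 and 130 MHC class II cells. With the KO states weighted to the WT mix, Lpl was at -1.38, Cd36 at -0.95, Fabp4 at -1.25 and Apoe at 0.52.

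**Figure D4:**
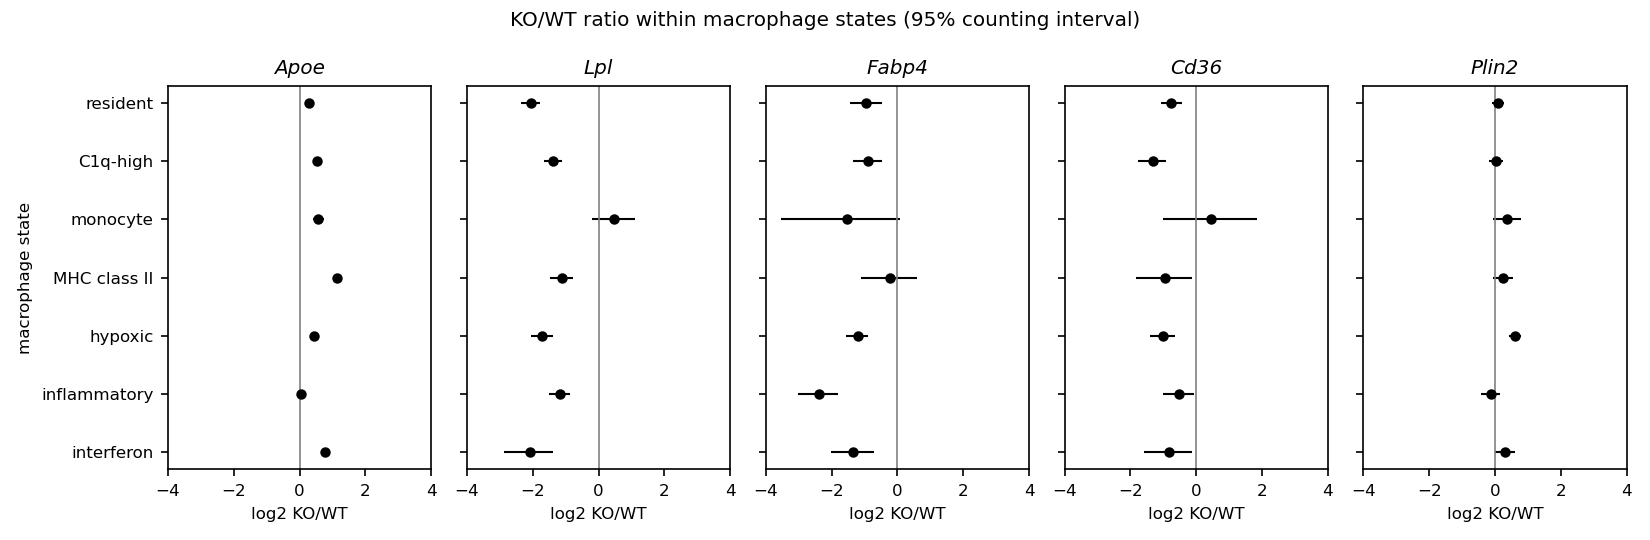
Log2 KO/WT ratio of 5 genes in each of 7 macrophage states, with 95% counting intervals and a line at 0. Apoe lies right of 0 in 7 states, Fabp4 left of 0 in 7, and Lpl left of 0 in 6, with monocytes at 0.46. States are parts of the same libraries and were not split by sex.

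Endothelial-like cells of both libraries had the same high level of Fabp4, which marks capillary endothelium. It measured 16640 CPM in 68 WT cells and 16756 CPM in 23 KO cells, a log2 ratio of 0.01 (-0.07 to 0.09), and each cell had at least 1 UMI. The fatty acid receptor Cd36 was at 711 and 738 CPM (0.05, -0.37 to 0.46) and Fabp5 at 2118 and 1851 CPM (-0.19, -0.45 to 0.06). Among cells with Xist alone, 51 WT and 8 KO, Fabp4 was at 0.09 (-0.06 to 0.24) but Fabp5 at -0.86 (-1.47 to -0.30). The 5 KO cells with Y-linked UMIs alone had Fabp5 at -1.52 (-2.23 to -0.89) to those WT cells. Fabp5 was at 2860 CPM in the 10 KO cells with neither transcript. Gpihbp1, which holds lipoprotein lipase at the vessel wall, was at 1643 and 2391 CPM (0.54, 0.30 to 0.78). In the same gate 4.98% of 1124 genes with at least 50 UMIs were 2-fold apart. Of the 5 members measured by that limit, 1 was, namely Apoe at 51 and 8 UMIs (-1.11, -2.40 to -0.03), and its 88.1 CPM in KO was below the 137 CPM expected from free RNA. Endothelial Lpl gave 11 and 1 UMIs. The median ratio was 0.01 for the 5 members and 0.00 for all genes.

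The mural-like gate held the stromal cells that were also positive for markers of pericytes and smooth muscle, and its leading markers were those of fibroblasts, with a median of 1.79% and 1.30% of UMIs against 0.244% and 0.152% for mural markers. It is therefore described by its rule and not as a mural cell type. Fabp4 was at 1791 CPM (25 UMIs) in its 4 WT cells and 1657 CPM (81 UMIs) in its 11 KO cells, while endothelial markers took a median of 0.0448% and 0.0543% of their UMIs against 0.778% and 0.835% in endothelial-like cells. Fabp5 was at 931 CPM (13 UMIs) in WT and 2680 CPM (131 UMIs) in KO, a log2 KO/WT of 1.52 (0.70 to 2.47). Of the members with counts in this gate, Fabp5 alone had an interval off 0, and it rests on these few cells.

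In fibroblast-like cells Lpl was again lower in the KO library and the other measured members differed less. Lpl measured 557 CPM in WT cells and 121 CPM in KO cells (-2.20, -2.50 to -1.90), or 4.58-fold less, with an Lpl UMI in 47.5% of 162 and 18.0% of 200 thinned cells (61.7% and 24.9% before thinning). Plin2 was at 128 and 211 CPM (0.72, 0.37 to 1.08) and Fabp5 at 221 and 379 CPM (0.78, 0.52 to 1.05). Fabp4 was at 85.3 and 119 CPM (0.47, 0.03 to 0.93) and Apoe at 260 and 191 CPM (-0.45, -0.74 to -0.15). Of 5 members measured, 1 was 2-fold apart, beside 7.22% of the 4610 genes measured in this gate, and the median was 0.47 against -0.03 for all genes. The markers of the hypoxic macrophage state, summed in this gate, were also higher, at 1288 (WT) and 2878 CPM (KO), and their part was not tested.

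Free RNA, estimated from the melanoma markers seen in this gate, was large beside some fibroblast levels. It came to 136 and 197 CPM of Apoe, which is 52.4% of the WT level and 103% of the KO level, and to 70.7% and 54.2% of Fabp5. For Lpl it came to 2.46% and 3.90%. The KO level of Apoe was thus at background, and subtracting free RNA left 0 CPM of it. A floor of 3 counts then set its log2 KO/WT to -5.30, which is an upper bound and not a measured ratio. Cd36 gave 5 and 1 UMIs.

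Fibroblast Lpl was lower in KO cells of both sexes. Among cells with Xist alone it measured 560 CPM in 153 from WT and 293 CPM in 62 from KO (-0.93, -1.33 to -0.55), and 50 KO cells with Y-linked UMIs alone had 35.3 CPM from 11 UMIs, which is -3.99 (-5.00 to -3.13) to WT. Fabp4 parted the KO sexes, with 315 CPM in KO cells with Xist, 48.1 CPM in those with Y-linked UMIs and 71.9 CPM in WT cells with Xist. Adipocyte markers gave 0 WT and 12 KO UMIs in the fibroblast-like gate.

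Melanoma-like cells, whose own Atf4 was not deleted, expressed Apoe, Fabp5 and Plin2. Apoe was at 898 CPM in tumours of WT hosts and 826 CPM in those of KO hosts (-0.12, -0.15 to -0.09), and Fabp5 at 1471 and 1414 CPM (-0.06, -0.08 to -0.03). Plin2 was at 106 and 130 CPM (0.29, 0.21 to 0.38). Hypoxia was scored in these cells with another list, Slc2a1, Bnip3, Egln3, Ndrg1, Pgk1, Ldha, Ero1l and Ankrd37. In the 25% of cells highest in these markers, 441 and 478 cells, Plin2 was at 140 and 195 CPM (0.48, 0.33 to 0.62), against 96.3 and 110 CPM in the remaining cells (0.19, 0.09 to 0.29).

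The other members were low in melanoma-like cells. Lpl gave 127 and 39 UMIs over the whole gate (6.31 and 1.94 CPM, log2 -1.70), while the level over each whole library was 145 and 32.9 CPM. Cd36 gave 52 and 18 UMIs (-1.53), Fabp4 173 and 114 UMIs (-0.60), and Abcg1 7 and 7 UMIs. Abca1 gave 95 and 175 UMIs, 4.72 and 8.70 CPM (0.88, 0.51 to 1.26), with a library level of 26.8 and 26.7 CPM. It was thus also below its library level, and the part of free RNA in it was not tested. Over each whole library Cd36 was at 58.3 and 22.4 CPM and Fabp4 at 287 and 104 CPM. The melanoma-like UMIs of Lpl, Cd36 and Fabp4, all below their library levels, thus cannot be told apart from free RNA. They are not read as a difference in these cells. Lpl and Cd36 are the 2 of 7 measured members that were 2-fold apart, beside 2.68% of 11069 genes. The median over the measured members was -0.12 against 0.02 for all genes.

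Another 67 lipid genes in 5 lists were counted to set the members among their pathways. In macrophage-like cells 0 of 48 measured genes were at least 2-fold higher in KO and 2 were at least 2-fold lower. Of all genes measured in this gate, 1.49% were higher and 1.47% lower by that limit. Pparg, the lipid-sensing nuclear receptor named above, was at 36.3 and 17.9 CPM (-1.02, -1.59 to -0.49). The 9 genes of cholesterol efflux and LXR targets had a median of -0.10 and the 9 droplet and neutral lipid genes a median of 0.06. Within the latter, Pnpla2, the triglyceride lipase of droplets, was at 26.4 and 44.4 CPM (0.75, 0.31 to 1.19), Acsl1, which activates fatty acids, at 0.76 (0.10 to 1.43), and its relative Acsl3 at -0.89 (-1.57 to -0.25). Olr1, a receptor for oxidised lipoprotein, was at 0.84 (0.00 to 1.70) from 23 and 29 UMIs. The 11 lysosomal and sterol genes, 10 uptake genes and 9 PPAR and oxidation genes had medians of -0.09, -0.02 and -0.02.

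Endothelial-like cells had 0 of 5 measured genes 2-fold apart, beside the 4.98% of all genes given above. Fibroblast-like cells had 2 of 27 measured genes at least 2-fold higher and 0 lower, a share near the 7.22% of all genes given above. These were Vldlr, a lipoprotein receptor, at 32.3 and 83.0 CPM (1.36, 0.70 to 2.07), and Hilpda, a hypoxia-induced inhibitor of droplet lipolysis, at 80.1 and 163 CPM (1.02, 0.59 to 1.47). Npc2, which moves cholesterol out of the lysosome, was at 0.26 (0.09 to 0.44), and the desaturase gene Scd2 at -0.30 (-0.60 to -0.01). In melanoma-like cells 3 of 53 measured genes were at least 2-fold higher and 0 lower, beside 2.68% of all genes in either direction and 2.06% higher. Vldlr was at 1.44 and 4.58 CPM (1.67, 1.05 to 2.32), the fatty acid transporter Slc27a1 at 5.37 and 15.5 CPM (1.53, 1.21 to 1.86), and G0s2, an inhibitor of Pnpla2, at 1.89 and 4.83 CPM (1.35, 0.80 to 1.93). These are low levels, from 29 and 92 UMIs of Vldlr, 108 and 312 of Slc27a1 and 38 and 97 of G0s2. The part of free RNA in them was not tested. The 12 lysosomal and sterol genes were all within 2-fold in melanoma-like cells. Their median was -0.30 against 0.02 for all genes of the gate, and Idi1 was at 104 and 63.6 CPM (-0.70, -0.81 to -0.60). Scd1 was at -0.73 (-0.85 to -0.60) and Acsl3 at -0.59 (-0.67 to -0.51).

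The genes most like each member were those with the highest Pearson r of log2(CPM + 10) over 25 points, the gates and states of both libraries with at least 20 cells, among 7867 genes. These points share libraries and markers, so r is a description. Apoe was most like Ctsz (0.96), a lysosomal protease, and C1qb, which is one of the gate markers. Lpl was most like the chemokine Ccl2 (0.93), with Spp1 and Ccl7 next, Fabp4 most like Clic4 (0.84) and Cd93, and Cd36 most like Cd93 (0.96). Plin2 was most like Osbpl8 (0.98), Gla and Ctsb, and Fabp5 most like Dgkz (0.91). Abca1 was most like Sdc3 (0.93) and Abcg1 most like Atf3 (0.95). Among the members themselves, Abca1 and Abcg1 were the most alike pair (0.92), and Apoe and Fabp4 the least (-0.10).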

How the data were processed

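Single-cell RNA sequencing (10x 3′) was performed on 1 WT and 1 KO tumour library. Each deposited matrix lists unnormalised UMI counts, which the authors made with Cell Ranger (3.1.0 per the labels) after alignment to GRCm38, with Ensembl genes. The labels and the study's methods name different kit versions, so depth is given from the counts, 38417113 UMIs in WT and 38290024 in KO. The deposited barcodes each had at least 500 UMIs.

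The study's limits were applied to cells, namely 200 to 5000 genes seen and no more than 7.5% of UMIs from mitochondrial genes. A cell entered a gate with at least 3 of its markers and a marker share of UMIs of at least 0.5% (macrophage), 0.2% (endothelial), 0.4% (fibroblast), 0.1% (mural), 0.2% (T or NK) or 0.4% (melanoma). These limits were set after seeing the distributions of marker shares, never member values. Cells of 2 host lineages (27 WT, 12 KO) or of a host lineage and melanoma (33 and 17) were left out, and 262 WT and 334 KO cells entered no gate. Scrublet (scanpy 1.11.5) called 96 WT and 47 KO doublets, which were removed only as an alternative. A macrophage state needed at least 2 of its markers and a z-score above 0.5. UMIs were summed per gate and library and divided by the gate's total (CPM). Levels, shares and ratios have exact Poisson, Clopper-Pearson and conditional binomial 95% intervals, respectively. Reads were counted by molecular identifier, and intervals cover counting error only. A 2-fold difference was counted among genes with at least 50 UMIs over both libraries. The script for ratios was tested on simulated counts. Python 3.11.15, numpy 2.4.6 and scipy 1.17.1 were used.

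All 8 members are named in the macrophage-like and melanoma-like gates, and some of them in the endothelial-like, fibroblast-like and mural-like gates. Levels in T or NK cells are not described. Of the other lipid lists, up to 3 genes per direction and gate are named, those with the largest ratio among genes with at least 50 UMIs and an interval off 0. One gene that this rule names is not reported here. The members and lists were chosen with earlier results of these data known. Alternatives were other limits on cells and gates, doublet removal, leaving out mitochondrial and ribosomal protein genes, the mean of per-cell CPM, subtraction of free RNA, other thinning depths and cells with Xist and no Y-linked UMI. KO cells with Y-linked UMIs against WT cells with Xist, cells with at least 2000 UMIs, and KO macrophage states in the WT mix were chosen after seeing the data.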

Additional observations from a re-analysis of the deposited data

Results flagged for a closer look

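Apoe, Fabp4 and Fabp5 differed between genotypes in opposite directions in different gates, and the difference between gates was not tested, since each genotype had 1 library. The log2 KO/WT of Apoe was 0.45 in macrophage-like cells, where it was higher in KO, and -1.11 in endothelial-like, -0.45 in fibroblast-like and -0.12 in melanoma-like cells, where it was lower. Fabp4 was lower in KO in the macrophage-like (-1.33) and melanoma-like gates (-0.60) but higher in fibroblast-like cells (0.47). Its melanoma-like levels of 8.60 and 5.67 CPM lay below its library levels of 287 and 104 CPM and cannot be told apart from free RNA. Against WT fibroblast-like cells with Xist, Fabp4 was at 2.13 (1.58 to 2.70) in KO cells with Xist alone. In KO cells with Y-linked UMIs alone it was at -0.58 (-1.52 to 0.28). Fabp5 was lower in the macrophage-like (-0.40) and melanoma-like gates (-0.06) and higher in fibroblast-like cells (0.78). Free RNA was estimated at 155% of the KO and 32.7% of the WT level of Apoe in endothelial-like cells, and at 103% and 52.4% in fibroblast-like cells. For fibroblast-like Fabp5 it came to 54.2% of the KO and 70.7% of the WT level.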

How the results depend on the processing

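No paired analysis was possible because only 1 library was made per genotype. With host cells that had Xist alone and no Y-linked transcript, the macrophage log2 KO/WT was 0.056 for Apoe, -1.07 for Lpl and -0.90 for Fabp4. It turned to -0.046 for Abca1 and 0.14 for Fabp5, with 1 member at least 2-fold apart and a median that turned to 0.0050. In the same female cells fibroblast Lpl was at -0.93, fibroblast Apoe turned to 0.42, and 0 endothelial members were 2-fold apart. With KO cells having Y-linked UMIs and no Xist against those WT cells, macrophage Apoe was at 0.55, Lpl at -1.95, Fabp4 at -1.83 and the median at -0.53, endothelial Fabp4 was at -0.39 with 2 members 2-fold apart, fibroblast Lpl was at -3.99 with 2 members 2-fold apart, and fibroblast Fabp4 turned to -0.58, which was also the median there. In cells with at least 2000 UMIs, macrophage Apoe was at 0.42, Lpl at -1.99, Fabp4 at -1.53 and Cd36 at -1.05, and endothelial Fabp4 at -0.10. With the KO states in the WT mix, Apoe was at 0.52 and Lpl at -1.38. The mean of per-cell CPM gave -1.38 for Lpl, -0.99 for Fabp4 and -0.54 for Cd36 in macrophage-like cells, with 1 member 2-fold apart, 0.27 for endothelial Fabp4 with 0 members 2-fold apart, and a melanoma median of -0.079. Subtracting free RNA put endothelial Fabp4 and the endothelial median at 0.0985. It left 3 fibroblast members 2-fold apart, with Apoe counted by its floor-set bound of -5.30, and removing doublets gave 2. A mitochondrial limit of 15% gave 0 endothelial members 2-fold apart, turned melanoma Fabp4 to 0.27 and put the melanoma median at -0.014. Gate limits raised by a factor of 2 gave 0 endothelial members 2-fold apart and a melanoma median of -0.063. The cause of these changes was not tested. Of the recomputed ratios of the members central to each gate, 57 stayed within the counting interval and 21 moved beyond it, and of those of the other members 150 stayed, 29 moved and 5 turned. The 23 KO endothelial-like cells and the single library per genotype limit what can be resolved.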
